A study of Mus musculus with 4 samples.

Results

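The 10 Sox factors described here are genes of the Sry-related HMG box family that mark neural progenitors and young neurons, and they were taken as every probe set whose platform annotation gives a single gene symbol equal to Sox1, Sox2, Sox3, Sox21, Sox4, Sox11, Sox5, Sox6, Sox8 or Sox9. They held 36 of 45137 probe sets, 20 on the MOE430A array and 16 on MOE430B, and 10 of the 18193 genes with a symbol of their own. The samples were neurospheres, which are balls of cultured neural stem cells and their progeny, from the ventral telencephalon (lower forebrain) of mouse embryos at E12.5. There was 1 RNA sample labelled knockout for E2f4, which encodes a transcription factor of the E2F family, and 1 wild-type RNA sample, each run on an MOE430A and an MOE430B array. The allele, the strain, the number of embryos behind each culture and the culture time were not stated in the labels. With 1 sample per genotype there was no replicate and no test, so each difference below holds for these samples, and whether it belongs to the genotypes was not tested.

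Sox proteins bind DNA through a shared HMG box and usually act beside a partner factor. The SoxB1 proteins Sox1, Sox2 and Sox3 hold neural cells in the progenitor state, and the SoxB2 protein Sox21 counteracts them. The SoxC proteins Sox4 and Sox11 switch on neuronal genes in cells leaving the cycle. The SoxD proteins Sox5 and Sox6 lack an activation domain of their own and act with other factors in cortical neurons, interneurons and glia, and the SoxE proteins Sox8 and Sox9 act in neural stem cells and glia.

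Signals were MAS5 values on a linear scale, and RNA levels were compared only between the samples on the same probe set. How bright a probe set was is given only to show how far it stood above background. A probe set was taken as measured if neither sample fell below the floor, the median signal of its design, 736 on MOE430A and 942 on MOE430B. Of the 36 Sox probe sets 29 were measured, 17 on MOE430A and 12 on MOE430B, and the other 7 were below the floor in both samples. The gene value is the mean log2 ratio of knockout over wild type across the measured probe sets, centred on the design's median ratio. Where a gene had several measured probe sets, their pooled SD was 0.33 on the log2 scale over all 3956 such genes, and for the 8 Sox genes with several it was 0.30. This is the spread between probe sets, not between animals or cultures.

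The E2f4 probe set read 1535 in the knockout sample and 1812 in the wild-type sample, a log2 ratio of -0.25. The labels do not say which part of E2f4 was deleted, so this probe set is no check of the genotype. All 9 markers listed for neural stem and progenitor cells were measured, 7 higher and 2 lower in the knockout sample, and their median was 0.08. This list includes Sox2, which is among the 7. Of 8 neuron markers 8 were measured, while 1 of 4 astrocyte, 3 of 7 oligodendrocyte lineage, 3 of 8 endothelial, 2 of 8 mesenchymal and meningeal and 2 of 5 microglial markers were. The 3 measured genes of red blood cells were all lower in the knockout sample (median -0.52). They stood well above the floor in both samples. Their mean signals in the knockout sample were 61944 for Hbb-y, 18975.5 for Hba-x and 3252 for Hbb-bh1. In the wild-type sample these were 77853, 27119 and 6018. The source of this RNA was not tested. Knockout and wild-type arrays shared a hybridisation day within each design, and MOE430A and MOE430B were run on separate days.

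Across the 10 Sox genes the level was close to the same in both samples. All 10 had a gene value, 5 higher and 5 lower in the knockout sample, and the median was -0.01. The median over all 10171 measured genes was also -0.01, with 48.6% higher and 51.4% lower. Of the Sox genes 9 of 10 lay within 1.2-fold, against 65.1% of all measured genes. The groups were not matched, since 8 of the Sox genes averaged several measured probe sets, against 3956 of the 10171 genes. How far such averaging or brightness narrowed the Sox values was not tested. Sox1 alone was at least 1.5-fold different, at 1.53-fold lower, where 7.3% of all genes passed that size in either direction and 3.89% were lower by it. No Sox gene was 2-fold different, where 1.01% of all genes were. Among the 29 measured probe sets 11 were higher and 18 lower, and 3 were at least 1.5-fold different, where 10.4% of all measured probe sets were. Those 3 belonged to Sox1, Sox4 and Sox5, and in each of these genes the other measured probe sets lay within 1.2-fold.

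**Figure D1:**
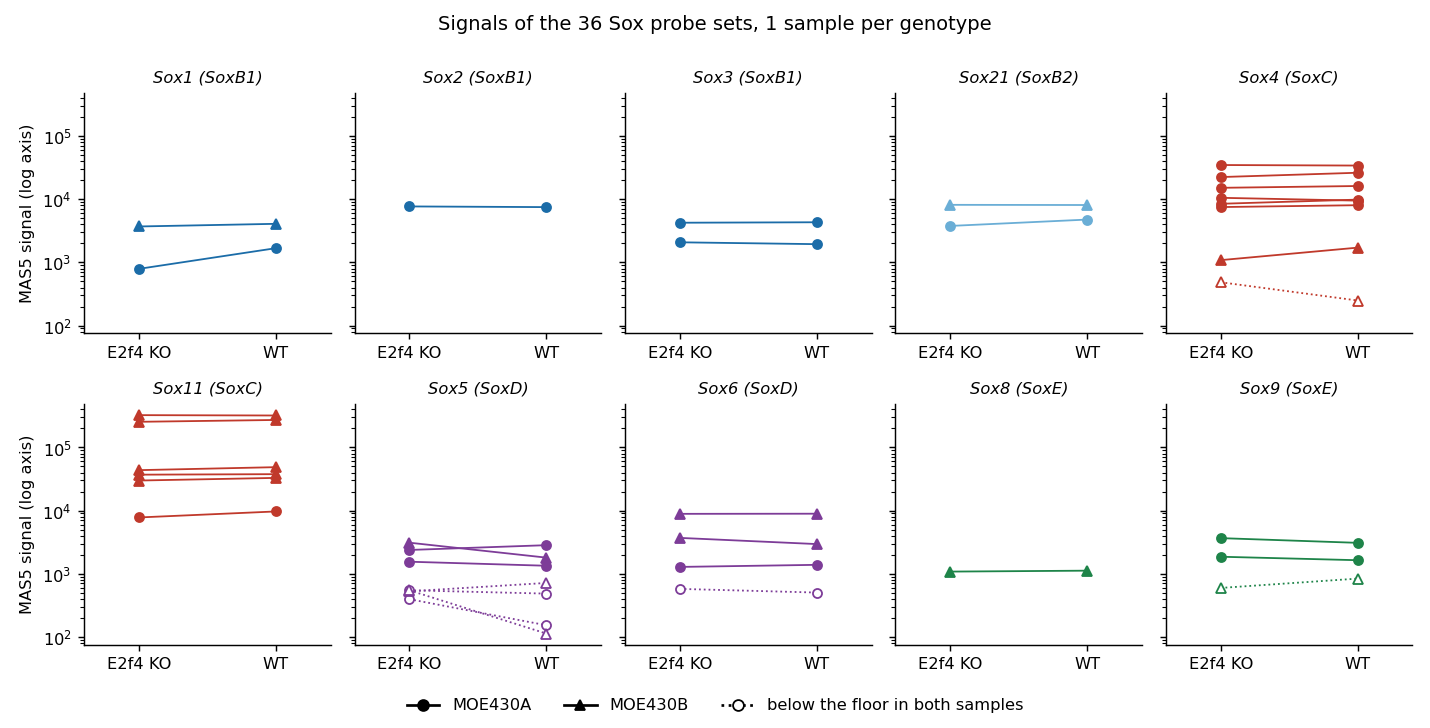
MAS5 signal (log axis) of each of the 36 Sox probe sets in the E2f4 knockout sample (left) and the wild-type sample (right), a panel per gene, circles for MOE430A and triangles for MOE430B, with open symbols for probe sets below the floor in both samples. Most lines are flat, and the steepest measured ones are a Sox1 probe set with 792 in the knockout sample against 1684 in the wild type, a Sox5 probe set with 3095 in the knockout sample against 1795 in the wild type, and a Sox4 probe set with 1088 in the knockout sample against 1716 in the wild type.

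Sox1, a SoxB1 factor of progenitors that is also needed for ventral forebrain neurons, had the lowest gene value of the 10, at -0.62. Its MOE430A probe set (1422205_at) read 792 in the knockout sample and 1684 in the wild-type sample, a log2 ratio of -1.10 or 2.14-fold lower. Its MOE430B probe set (1438729_at) read 3715 in the knockout sample and 4094 in the wild-type sample, a log2 ratio of -0.14. Both were lower in the knockout sample, but the SD between them was 0.68, larger than the gene value itself. The MOE430A reading in the knockout sample stood just above the floor of 736. On MOE430A 0.192% of measured probe sets were at least 2-fold lower. Among the measured probe sets outside the brightest 25% of that design, the central 95% of log2 ratios ran from -0.64 to 0.61, and Sox1 lay outside it. The MOE430B probe set lay well inside the range of the brightest 25% of its design, -0.70 to 0.63. The size of the Sox1 difference therefore rested on 1 probe set.

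Sox2, the SoxB1 factor that maintains neural stem cells, and Sox3, its close relative on the X chromosome, were nearly level. The 1 Sox2 probe set read 7719.9 in the knockout sample and 7530.25 in the wild-type sample, a log2 ratio of 0.03. Sox2ot, a non-coding transcript whose locus holds Sox2, read 4086 in the knockout sample and 3967 in the wild-type sample, at 0.05. This gene was looked at after its values were seen, and whether its probe set reads Sox2 transcripts too was not tested.

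The Sox3 probe sets read 4259.7 and 2085 in the knockout sample, against 4332 and 1948 in the wild-type sample, with log2 ratios of -0.03 and 0.09 and a gene value of 0.03. Xist, the RNA that coats an inactive X chromosome, read 1178 in the knockout sample and 8980 in the wild-type sample on its measured probe set, a log2 ratio of -2.94. A further Xist probe set reached the floor only in the wild-type sample, at 47 in the knockout sample and 1817 in the wild-type sample. None of the probe sets of the Y-linked genes Eif2s3y, Kdm5d and Uty was measured. Of Kdm5d 1 probe set reached the floor in the wild-type sample alone, at 697 in the knockout sample and 786 in the wild-type sample. The X-linked Sox3 thus stood level between samples that differed in Xist, and the part of Xist in its value was not tested. Sox21 had probe sets at 3789 and 8183 in the knockout sample, against 4781 and 8129 in the wild-type sample. Their log2 ratios of -0.34 on MOE430A and 0.01 on MOE430B disagreed in size and in sign, and the gene value was -0.17.

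Sox4 and Sox11, the SoxC factors of young neurons, were measured by the most probe sets, 7 and 6. Of these 13 probe sets 10 were lower in the knockout sample. The probe sets read the same RNA samples, so they are not replicates of the genotypes. Their median was -0.11 with a range from -0.65 to 0.14, and both gene values were small, -0.17 for Sox4 and -0.12 for Sox11. On MOE430A the Sox4 probe sets read 22546, 8501, 15226, 34991.5, 10581 and 7543 in the knockout sample, against 26399, 9899.6, 16267, 34313, 9541 and 8076 in the wild-type sample. Their log2 ratios lay between -0.24 and 0.14, with 4 of 6 lower. The brightest of them was at 0.02, so the direction depended on the probe set read.

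The measured MOE430B probe set of Sox4 (1443778_at) read 1088 in the knockout sample and 1716 in the wild-type sample, 1.57-fold lower. It was the dimmest measured one of the gene, and its log2 ratio of -0.65 lay inside the central 95% of -0.91 to 0.91 for MOE430B probe sets outside the brightest 25%. Of all measured MOE430B probe sets 8% were at least 1.5-fold lower. A further one (1458332_x_at) was below the floor, at 485 in the knockout sample and 249 in the wild-type sample. These MOE430B probe sets of Sox4 pointed in opposite directions.

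Of the 5 MOE430B probe sets of Sox11, those with the highest signals read 325409 and 255150 in the knockout sample against 321129 and 272901 in the wild-type sample. Its other MOE430B probe sets read 29922, 43705 and 37058 in the knockout sample, against 32951, 48737 and 37742 in the wild-type sample. The 5 log2 ratios on this design ran from -0.15 to 0.02. The MOE430A probe set read 7777 in the knockout sample and 9683 in the wild-type sample, at -0.33, inside the central 95% of -0.44 to 0.42 for the brightest 25% of that design. The 6 probe sets of Sox11 had an SD of 0.12, and 5 of them were lower. Whether the brightest spots were saturated was not tested, since the tables used here hold no such flag.

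Beside the SoxC genes, the neuron list (genes that SoxC proteins are known to act on, such as Tubb3 and Dcx, and general neuron genes) had a median of -0.23, with 16 of 19 measured genes lower in the knockout sample. None passed 1.5-fold. The farthest from 0 were Nefl, a neurofilament subunit, at -0.46, Nsg2, a neuronal endosome protein, at -0.41 and Stmn3, a microtubule regulator, at -0.40. Tubb3, a direct SoxC target in other work, was at 0.01 and Dcx, a microtubule protein of migrating neurons, at -0.09. Both were picked with their values known. The 8 neuron markers, all of them also on this list, included 7 that were lower, with summed signals of 119369 in the knockout sample and 134531 in the wild-type sample on MOE430A, and 33521 in the knockout sample and 42144 in the wild-type sample on MOE430B. The part of a smaller share of neurons in the SoxC values was not tested, and in bulk RNA fewer cells of a type and less RNA per cell cannot be told apart.

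Promoter sequence was set beside these values for Sox1, the member farthest from 0, and for Sox4 and Sox11, the members with the most probe sets. The stretches are the 250 bases before the gene start in RefSeq, build GRCm38.p6, 5′ to 3′ on the gene's strand, with CCAAT or its reverse complement ATTGG in capitals.
Sox1 (chr8:12395269-12395518, plus strand): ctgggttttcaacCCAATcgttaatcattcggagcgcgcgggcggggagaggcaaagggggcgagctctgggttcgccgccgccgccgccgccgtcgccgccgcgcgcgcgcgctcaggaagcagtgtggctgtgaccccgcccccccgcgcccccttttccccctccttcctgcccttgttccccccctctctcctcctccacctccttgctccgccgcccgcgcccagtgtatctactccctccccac
Sox4 (chr13:28953700-28953949, minus strand): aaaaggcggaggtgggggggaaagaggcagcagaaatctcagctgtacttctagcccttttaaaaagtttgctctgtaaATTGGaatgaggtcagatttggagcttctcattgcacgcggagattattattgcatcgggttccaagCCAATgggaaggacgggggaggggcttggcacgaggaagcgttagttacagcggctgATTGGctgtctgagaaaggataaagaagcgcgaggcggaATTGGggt
Sox11 (chr12:27342719-27342968, minus strand): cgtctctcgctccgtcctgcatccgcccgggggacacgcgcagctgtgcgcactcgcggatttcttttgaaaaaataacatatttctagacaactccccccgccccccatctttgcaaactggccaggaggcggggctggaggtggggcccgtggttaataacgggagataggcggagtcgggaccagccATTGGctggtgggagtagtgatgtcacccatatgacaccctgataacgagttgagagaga
The Sox1 stretch was 71.2% G and C, against 50.8% for Sox4 and 58% for Sox11, and a median of 52.4% over all promoters. The E2F-type motif TTTNNCGC, searched on both strands, was in 0 of 13 stretches of the 8 Sox genes with a RefSeq promoter and in 4.28% of 32851 stretches in all. Stretches for Sox3 and Sox9 were not used here. CCAAT, bound by the factor NF-Y, was found 4 times before Sox4, once each before Sox1 and Sox11, and in all in 6 of the 13 stretches of the Sox genes (those of Sox1, Sox2, Sox4 and Sox11 and 2 of Sox6), against 33.8% of all stretches. The first base of the copy nearest the start lay 8 bases before it in Sox4, 60 in Sox11 and 237 in Sox1. These matches describe the letters of these windows only.

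**Figure D2:**
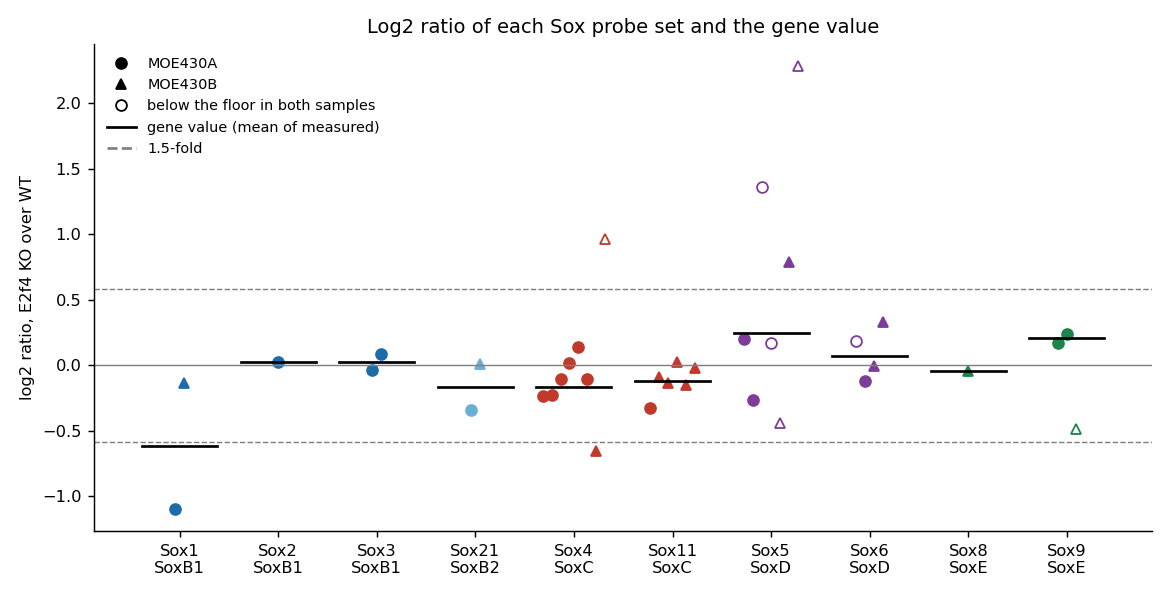
Log2 ratio of E2f4 knockout over wild type for each Sox probe set, with the gene value as a black bar and dashed lines at 1.5-fold. Open symbols are below the floor in both samples. The measured points outside the dashed lines are 1 each for Sox1, Sox4 and Sox5, and the gene bar of Sox1 at -0.62 is the only one past a line.

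Sox5, a SoxD factor of deep-layer cortical neurons, had the highest gene value of the 10, at 0.24, from probe sets that disagreed. Its measured MOE430B probe set (1455535_at) read 3095 in the knockout sample and 1795 in the wild-type sample, 1.73-fold higher. The MOE430A probe sets read 1546 and 2374 in the knockout sample, against 1334.5 and 2827 in the wild-type sample, with log2 ratios of 0.20 and -0.26. The SD over these 3 probe sets was 0.53, larger than the gene value. The MOE430B ratio of 0.79 lay inside the central 95% for probe sets outside the brightest 25% of its design, and 8% of measured MOE430B probe sets were at least 1.5-fold higher.

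The other 4 Sox5 probe sets were below the floor in both samples. They read 394 and 545 on MOE430A and 525 and 545 on MOE430B in the knockout sample, against 152, 483, 713 and 112 in the wild-type sample, so 3 of the 4 were higher and 1 lower. Signals this low gave no ratio that entered the gene value. Sox5 is transcribed in several forms, and which of them each probe set reads was not tested.

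Sox6, the other SoxD factor, which acts in interneurons and in oligodendrocyte precursors, had a gene value of 0.07. Its brightest probe set read 8870 in the knockout sample and 8916 in the wild-type sample, at 0.00. The others read 3689 and 1279 in the knockout sample, against 2943 and 1380.1 in the wild-type sample, with log2 ratios of 0.33 and -0.12. A further Sox6 probe set was below the floor, at 574 in the knockout sample and 502 in the wild-type sample. The measured probe sets of Sox6 thus lay on either side of 0.

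Sox9, a SoxE factor that sets up neural stem cells and astrocytes, was higher in the knockout sample on both measured probe sets, with a gene value of 0.21. These read 1854 and 3657 in the knockout sample, against 1633 and 3079 in the wild-type sample, with log2 ratios of 0.17 and 0.24. Another, on MOE430B, was below the floor in both samples, at 594 in the knockout sample and 835 in the wild-type sample. The SD between the MOE430A probe sets was 0.05, and 44.8% of all genes lay at least as far from 0 as Sox9. Its sign depended on leaving out the dim MOE430B probe set: with the floor at the 30th percentile, and with no floor, the gene value was -0.03. Sox8, the other SoxE factor here, read 1078 in the knockout sample and 1115 in the wild-type sample on its 1 probe set, at -0.04.

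**Figure D3:**
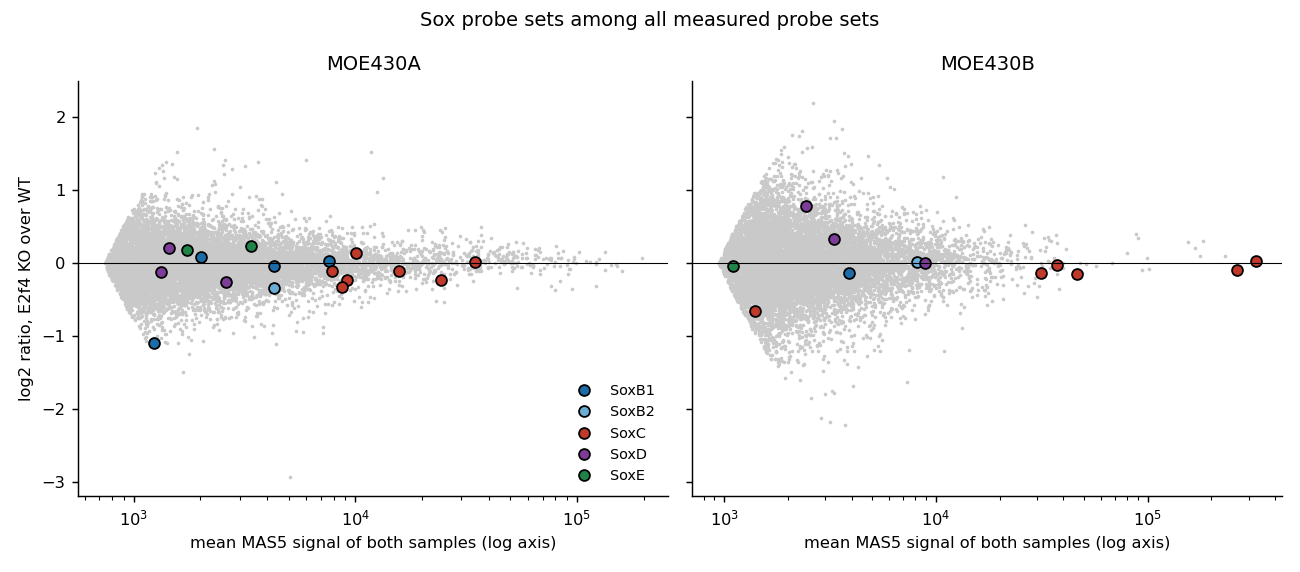
Log2 ratio of E2f4 knockout over wild type against the mean MAS5 signal (log axis) for all measured probe sets (grey) and the measured Sox probe sets (coloured by subfamily), MOE430A left and MOE430B right. The Sox1 probe set at -1.10 lies at the lower edge of the grey cloud on MOE430A, and the Sox11 probe sets stand at the bright end of MOE430B near 0.

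Among Sox genes outside the 10, 3 of 9 were measured. Sox10, the SoxE factor of the oligodendrocyte lineage, read 842 in the knockout sample and 1332 in the wild-type sample, a log2 ratio of -0.67, with its other 2 probe sets below the floor. Sox13, a SoxD factor, was at -0.16. Sox12, the remaining SoxC gene, was at 0.08 from measured probe sets at -0.26 on MOE430A and 0.43 on MOE430B. Sox18, a factor of endothelium, reached the floor only in the wild-type sample, at 513 in the knockout sample and 950 in the wild-type sample, at least 1.29-fold lower. Sox17, also a factor of endothelium, reached it only in the knockout sample, at 811 in the knockout sample and 520 in the wild-type sample on 1 of its 2 probe sets, at least 1.10-fold higher. Both were named after their values were seen.

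Of the 7 oligodendrocyte lineage markers with a probe set, which include Sox10, the 3 measured were Sox10, Cnp and Mbp. They were all lower in the knockout sample, with summed signals of 2720 in the knockout sample and 3751 in the wild-type sample. The other 4, Olig1, Olig2, Pdgfra and Cspg4, had no measured probe set. Probe sets that reached the floor in 1 sample went both ways. Of Pdgfra 1 read 1002 in the knockout sample and 658 in the wild-type sample, and of Mbp a further one read 813 in the knockout sample and 350 in the wild-type sample. Olig2 read 725 in the knockout sample and 1022 in the wild-type sample, and a further Cnp probe set 639 in the knockout sample and 944 in the wild-type sample. The glial list as a whole, genes linked to SoxE and SoxD proteins, had a median of -0.10 with 3 of 10 measured genes higher and 7 lower. Sox10 was its 1 member with a gene value at least 1.5-fold different, where 7.3% of all genes were. The Sox10 reading of 842 in the knockout sample stood near the floor of 736. Glial-list probe sets that reached the floor in 1 sample also went both ways. With their values known, a Mmd2 one read 603 in the knockout sample and 1298 in the wild-type sample, at least 1.76-fold lower. A Gfap one read 1094 in the knockout sample and 404 in the wild-type sample, at least 1.16-fold higher. The part of glial cells in the SoxE and SoxD values was not tested.

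Known partners of Sox proteins lay on both sides of 0. Of 10 measured partners 6 were higher and 4 lower, with a median of 0.03. No gene value was 1.5-fold different, where 7.3% of all genes were. The farthest were Pax6, a homeobox partner of Sox2, at 0.43, Chd7, a chromatin remodeller that works with Sox2 and regulates Sox4 and Sox11, at 0.36, and Pou3f4, a POU partner of SoxB proteins, at -0.33. The Pou3f4 probe sets read 918 and 2144 in the knockout sample, against 1458 and 2094 in the wild-type sample. Its value, like that of Sox1, thus came from the dimmer of its probe sets. Partner probe sets that reached the floor in 1 sample did so only in the wild-type sample, 1 each of Pou3f2, Pax6, Prox1 and Nfia. The share of all probe sets that did so was not counted, so nothing about the partners is read from it. Pou3f2, named after its values were seen, was at 0.11 from MOE430B. Its MOE430A probe set read 711 in the knockout sample and 1534 in the wild-type sample, at least 2.09-fold lower. A further Pax6 probe set read 342 in the knockout sample and 770 in the wild-type sample, at least 1.05-fold lower. Also named with values known, a Prox1 probe set read 521 in the knockout sample and 1294 in the wild-type sample. A Nfia probe set read 316 in the knockout sample and 879 in the wild-type sample.

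Progenitor genes linked to SoxB1 proteins had a median of 0.08, with 8 of 13 measured genes higher and 5 lower. Hes5, a Notch target that maintains progenitors, was at -0.87. It was the 1 member with a gene value at least 1.5-fold different, where 7.3% of all genes were. Its probe sets read 881 and 2521 in the knockout sample, against 2468 and 2984 in the wild-type sample. Both were lower, by 2.82-fold and 1.19-fold. The SD between them was 0.88, about the size of the gene value, and the dimmer reading of 881 stood near the floor of 736. Zbtb16, named after its values were seen, had no measured probe set. Of its probe sets 1 reached the floor only in the knockout sample, at 1622 against 890 in the wild-type sample, at least 1.72-fold higher. The Pax6 probe set given above went the other way. The list of proneural factors, which SoxB1 proteins hold back or which act before SoxC genes, also took in Eomes and Tbr1, later factors of cortical neurogenesis. It had a median of 0.54, with 5 of 6 measured genes higher, where 48.6% of all measured genes were. Eomes, the factor of cortical intermediate progenitors, was at 0.67, from probe sets at 0.56 and 0.78. It was the 1 member with a gene value at least 1.5-fold different. The other measured ones, named with values known, were Neurod2 at 0.58, Tbr1 at 0.57, Neurog2 at 0.50, Insm1 at 0.20 and Neurod1 at -0.13. Neurog1 reached the floor only in the knockout sample. Its probe sets read 797 and 1130 there, against 179 and 558 in the wild-type sample, at least 1.08-fold and 1.54-fold higher. These lists therefore stood at different places beside Sox genes that were nearly level. No test of that difference was possible.

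**Figure D4:**
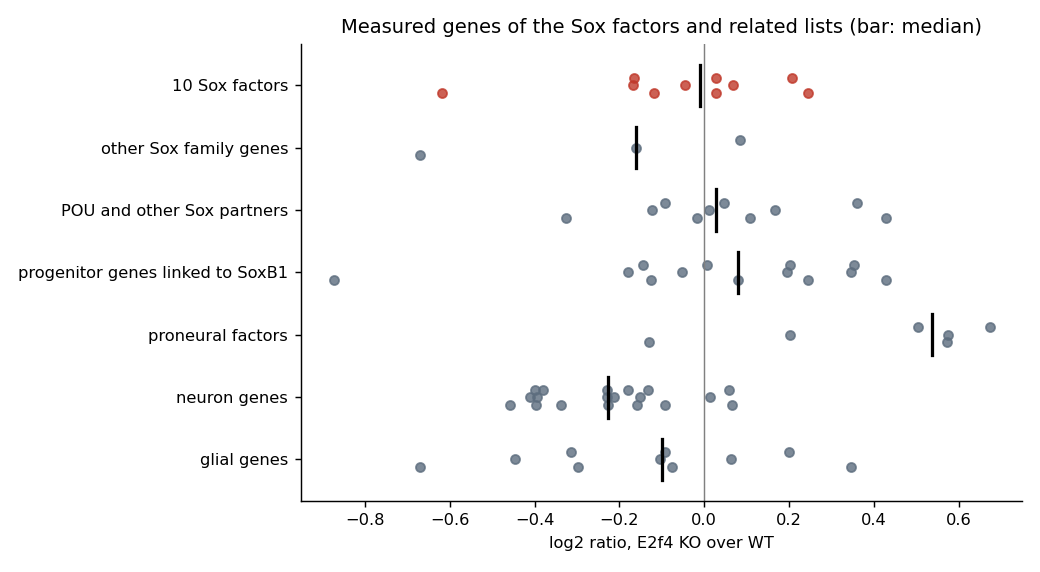
Gene values (log2 ratio, E2f4 knockout over wild type) of the 10 Sox factors (top, red) and of the measured genes of the 6 related lists, with the median of each as a bar. The Sox factors centre on -0.01, the list labelled proneural factors on 0.54 and the neuron genes on -0.23.

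**Figure D5:**
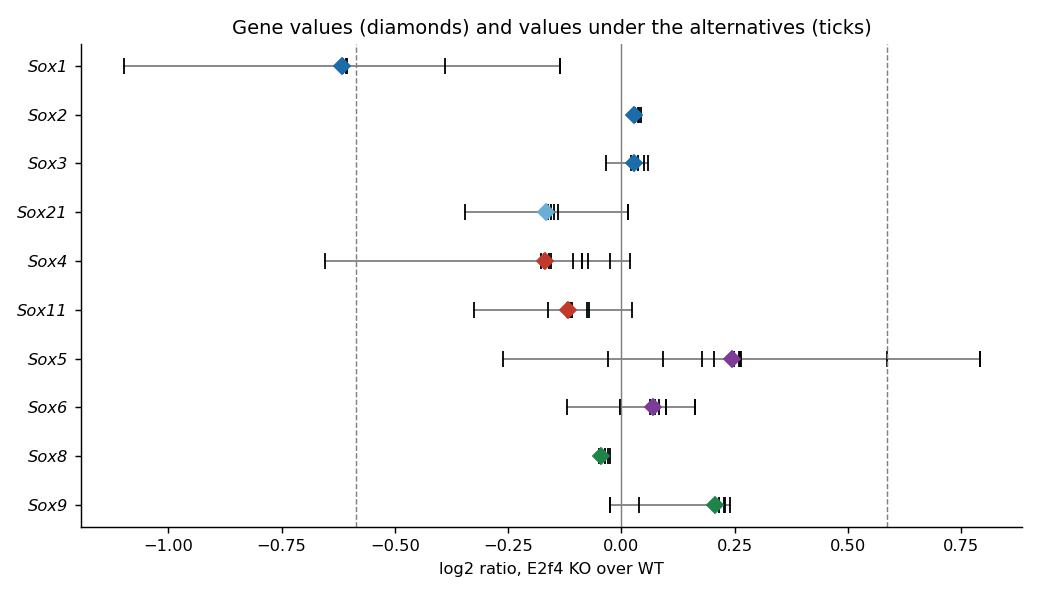
Gene value of each Sox factor (diamond) and its value under each of the other processing choices (ticks), as log2 ratio of E2f4 knockout over wild type, with dashed lines at 1.5-fold. Sox2, Sox3 and Sox8 stay within 0.1 of their diamonds, while Sox1 spans -1.10 to -0.14 and Sox5 spans -0.26 to 0.79.

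The sign was the same under every alternative that gave a value for Sox1, Sox2 and Sox8, and it turned under at least 1 for the other 7. Sox2 stayed between 0.03 and 0.04 under 11 alternatives, and Sox8 between -0.05 and -0.02 under 10. Sox1 was lower in the knockout sample under all 12, from -1.10 on MOE430A alone to -0.14 on MOE430B alone. With the brightest probe set per gene, Sox3, Sox4, Sox11, Sox21, Sox5 and Sox6 took the other sign, each but Sox5 within 0.04 of 0.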

How the data were processed

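Total RNA of the knockout and the wild-type neurospheres was prepared on RNeasy columns and labelled without amplification, per the labels' protocols. The deposited values are linear intensity values made by the authors with MAS5, per the submitters' processing notes, which give no version. From the values, each array has a mean of about 1500.5 (MOE430A) or 1500.2 (MOE430B) after trimming 2% at each end. The deposited instrument records gave the hybridisation days.

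Here 64 control probe sets per design were dropped, and log2 ratios of knockout over wild type were centred by subtracting the design's median (0.009 for MOE430A, -0.004 for MOE430B). On MOE430A 10399 of 22626 probe sets passed the floor, and on MOE430B 9528 of 22511 did. Where 1 sample alone reached it, its signal over the floor gave a bound. Symbols came from the platform annotation. Of 18193, 18032 had their identifier in a RefSeq table of GRCm38.p6, and none differed. The number of arrays limits the precision.

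The members and lists were chosen with earlier results of these data known. All members are named. Of each related list, genes at least 1.5-fold different are named (up to 6 by size), or else the 3 farthest from 0, and a list with fewer than 5 measured genes gets values only. Any other gene is marked as such. The steps were tested on simulated data with known shifts in 200 genes. That checks the arithmetic only, not the precision of ratios from 1 sample per genotype. The alternatives were floors at the 30th and 70th percentile, a pseudocount equal to the floor, no floor, no centring, quantile normalization, lowess (span 0.3), the brightest probe set, leaving out probe sets ending in _x_at, _s_at or _a_at, each design alone and, chosen after seeing the data, the median of the measured probe sets. Calculations used matplotlib 3.10.9, statsmodels 0.14.6, scipy 1.17.1, pandas 2.3.3 and numpy 2.4.6 under Python 3.11.15.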

Additional observations from a re-analysis of the deposited data

Results flagged for a closer look

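Sox6os, a transcript annotated opposite Sox6 and not among the 10 Sox factors, read 1036 in the knockout sample and 565 in the wild-type sample on its 1 probe set, on MOE430B. It was flagged as a reading outside the 10 Sox factors, above the floor of 942 in the knockout sample alone, at least 1.10-fold higher. Sox6 itself was at 0.07. No cause of the Sox6os reading was tested.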

How the results depend on the processing

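With 1 sample per genotype, leaving out a replicate could not be done, and no paired analysis was possible because each group holds 1 sample. The median over the Sox factors stayed between -0.09 and 0.03 under 12 alternatives, and changed sign under 4 of them, always within 0.1 of 0. The count of Sox factors at least 1.5-fold different was 1 as reported. It was 0 with the floor at the 70th percentile, 0 with a pseudocount, 0 with the brightest probe set, 2 with no floor, 2 on MOE430B alone and 2 after dropping _x_at, _s_at and _a_at probe sets. Only 9 Sox factors had a value under the higher floor and 7 on MOE430B alone, against 10 under the other settings named here. Sox1 lost the 1.5-fold size with the higher floor, where its value was -0.14 because the dimmer probe set left. Sox5 was at 0.59 with no floor and at 0.79 after dropping those probe sets. Of 115 values of single members under the alternatives, 106 moved by less than the SD of 0.33 between probe sets of a gene, and the others were of Sox1, Sox5 and Sox4. Over all genes, the share at least 1.5-fold different was 7.3% as reported, 32.5% with no floor and 4.09% with a pseudocount. That share was 4.23% under the higher floor, 9.29% by the brightest probe set and 13.1% on MOE430B alone. It was 8.68% after dropping _x_at, _s_at and _a_at probe sets. The proneural median stayed between 0.37 and 0.57 and the neuron median between -0.35 and -0.20, while the medians of the other Sox genes, of the partners and of the glial list changed sign under 3, 3 and 1 of 11 alternatives. Low signal over background limits the 7 Sox probe sets below the floor.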
